A study of Mus musculus with 13 samples.

Results

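Arntl, Clock, Npas2, Nr1d1, Nr1d2 and Rora were taken by symbol from a table of raw counts for mouse jejunal epithelial cells. All 6 were found among its 21868 genes, and all 6 passed the filter on low counts. Rora is the only ROR gene among the 6. Per the labels, the cells came from digested jejunum by a sort for EpCAM, an epithelial surface protein, that left out cells with the leukocyte markers CD45, CD11b, CD3 or B220. Messenger RNA was selected by its poly(A) tail. There were 13 libraries in 5 groups. BSF (breakfast skipping, food given from ZT16 to ZT24) had 2 libraries, BSF_C had 3, LSF (lunch skipping, food at ZT12 to ZT16 and ZT20 to ZT24) had 3, DSF (dinner skipping, food from ZT12 to ZT20) had 2 and con, the control, had 3. ZT is zeitgeber time, by convention counted from lights on, so the windows would lie in the dark phase, when mice are active. The 3 skipping patterns were kept for 2 weeks, with mice in 1 shared housing per the design text. The labels call BSF_C the breakfast skipping pattern combined with control and say no more. The feeding of con and BSF_C, the mouse strain, sex and age, and the hour of sampling are not given in the sources used here. The titles call the libraries biological replicates but do not say whether each is 1 animal, so the p-values cover the spread among the deposited libraries and no more.

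These genes form the positive limb of the circadian clock and the loop that sets its rhythm. BMAL1 (the product of Arntl) pairs with CLOCK, or with its relative NPAS2, and the pair binds E-box sequences to switch on the period and cryptochrome repressors and the nuclear receptors REV-ERB alpha (Nr1d1) and REV-ERB beta (Nr1d2). The REV-ERB proteins repress Arntl, Clock and Npas2 through ROR elements, and ROR proteins such as ROR alpha (Rora) activate through the same elements. Feeding time is known to set the phase of this clock in peripheral tissues such as liver and gut. Since the hour of sampling is not given, a level here cannot be told apart from a point on a daily rhythm.

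The start regions of 3 genes are shown because Arntl and the pair of REV-ERB genes stand on opposite sides of this loop and differed in how they varied among the groups. Each runs from 250 bases before the annotated start to 50 after it, 5′ to 3′ on the gene's strand, from RefSeq on GRCm38.p6. The region of Nr1d1 lies at chr11:98775328-98775627 on the minus strand, that of Nr1d2 at chr14:18239057-18239356 on the minus strand and that of Arntl at chr7:113207261-113207560 on the plus strand. Capitals mark the letters found by a search of both strands for the E-box CACGTG, the E′-box CACGTT, the ROR half-sites AGGTCA and GGGTCA, the cores TAGGTCA and TGGGTCA that contain them, RevDR2 (AGGTCA, NN and AGGTCA again) and the D-box TTATGTAA or TTACGTAA.
Nr1d1: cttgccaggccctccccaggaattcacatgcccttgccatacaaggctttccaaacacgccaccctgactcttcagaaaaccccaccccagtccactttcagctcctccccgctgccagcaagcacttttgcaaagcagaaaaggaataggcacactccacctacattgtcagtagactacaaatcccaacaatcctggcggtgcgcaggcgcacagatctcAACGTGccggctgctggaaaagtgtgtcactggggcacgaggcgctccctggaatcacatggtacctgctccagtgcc
Nr1d2: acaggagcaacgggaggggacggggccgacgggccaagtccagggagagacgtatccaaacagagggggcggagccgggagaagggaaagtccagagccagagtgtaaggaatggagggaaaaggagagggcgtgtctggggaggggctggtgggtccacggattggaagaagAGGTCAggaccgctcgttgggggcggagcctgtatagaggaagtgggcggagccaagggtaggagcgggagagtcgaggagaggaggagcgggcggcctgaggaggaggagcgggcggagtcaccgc
Arntl: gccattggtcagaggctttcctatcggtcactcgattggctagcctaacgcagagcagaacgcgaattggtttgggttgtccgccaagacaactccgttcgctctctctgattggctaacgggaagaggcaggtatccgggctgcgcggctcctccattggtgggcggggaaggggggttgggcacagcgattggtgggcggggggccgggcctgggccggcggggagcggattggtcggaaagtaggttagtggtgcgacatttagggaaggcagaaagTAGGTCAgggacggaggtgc
Nr1d1 held an E′-box, read on the other strand, whose first base lay 28 bases before the start. Of all 32851 start regions of this length, 4.68% held an E′-box. Nr1d2 held the half-site AGGTCA 77 bases before the start, a match found in 16.3% of start regions. This region of Arntl held the core TAGGTCA, which contains AGGTCA, 30 bases after the start, and 2.61% of start regions held that core. Another annotated start of Arntl gave a region with no match, as did those of Npas2 and Rora. Of 3 start regions of Clock, 1 held AGGTCA. The matches describe these windows and say nothing about binding.

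The BSF, BSF_C, LSF and DSF libraries held 7127769 to 8589351 counts and those of con 4851239 to 5202146. Genes with a count numbered 16345 to 16620 outside con and 14688 to 14957 in con. Con carried RNA typical of skin: 12 keratinocyte markers summed to 4.91 to 9.83 CPM (counts scaled to a common library size) in the other libraries and to 551 to 652 CPM in con. Of the 12, BSF had no count for 6, BSF_C for 3, LSF for 2 and DSF for 4, and con had counts for all. Epithelial markers (10 genes) summed to 9070 to 10300 CPM in the 4 other groups and 7380 to 8260 CPM in con. Within this list con was higher for Cdh1 (2020 against 718 to 851 CPM), Cldn7 (1320 against 831 to 894) and Krt18. All other genes of the list were lower in con, among them Fabp2 (17.8 against 130 to 186 CPM) and Alpi (598 against 1820 to 2990). Leukocyte markers (12 genes) summed to 161 to 181 CPM in BSF, 176 to 201 in BSF_C, 266 to 281 in LSF, 278 to 284 in DSF and 15.4 to 17.3 in con. Most of the con sum was Itgam, at 12.1 CPM in con and 5.81 to 7.92 CPM in the other groups. Cd79a was also highest in con (1.12 CPM), and no other gene of the list was. Ptprc averaged 0.139 CPM in con and 13.8 to 18.7 CPM in the other groups. Heart muscle markers (10 genes) summed to 97.2 to 98.7 CPM in BSF, 93.4 to 109 in BSF_C, 245 to 287 in LSF, 267 to 274 in DSF and 7.07 to 11.1 in con, where 7 of them had no count. The labels give no batch, so any batch of con and the control condition cannot be told apart. All comparisons with con share these libraries. Scaling to library totals in place of trimmed means raised the median gene by 0.18 (BSF), 0.17 (BSF_C), 0.10 (LSF) and 0.16 (DSF) against con on the log2 scale, and relative to that median the differences of the 6 genes moved by at most 0.01. Comparisons among the 4 other groups set no value against con, although con shares the fit's estimate of spread.

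CPM below are scaled by trimmed means (TMM), and a fold change is given as log2 of the first group over the second, with its standard error (SE). Adjusted p-values come from the quasi-likelihood test of edgeR, corrected by Benjamini-Hochberg across 14300 genes. A gene is called when its adjusted p is under 0.05. In bulk RNA, fewer cells of a type and less RNA per cell cannot be told apart.

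Of the 6 genes, the REV-ERB genes had the smallest p among the 4 groups other than con. Both were highest in LSF and lowest in BSF and BSF_C. Nr1d1, which encodes REV-ERB alpha (ENSMUSG00000020889.11, chromosome 11, 98767932 to 98775333 on the minus strand, GRCm38), had 47.4 and 45 CPM in the BSF libraries and 49.1, 42.1 and 47.9 in those of BSF_C. The LSF libraries had 102, 94.3 and 95.8, the DSF libraries 54 and 58.7 and the con libraries 77, 84.2 and 91. The LSF libraries lay above every other library, and those of BSF and BSF_C lay below every DSF and con library. Among BSF, BSF_C, LSF and DSF the joint test gave an adjusted p of 7.27e-19, rank 90 of all genes tested. Of all genes, 35.3% were called in this joint test, and 3 of the 6 genes were (2 without LSF replicate 1). Nr1d1 averaged 46.2 ± 1.67 CPM in BSF and 97.5 ± 4.35 CPM in LSF (SD, n = 2 and 3), a difference of -1.08 ± 0.09 (log2, SE; adjusted p = 2.43e-15, edgeR). BSF_C differed from LSF by -1.07 ± 0.07. LSF was 1.73-fold above DSF (0.79 ± 0.08, adjusted p = 5.1e-11, edgeR).

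Nr1d1 was also called lower in BSF than in DSF (-0.29 ± 0.10, adjusted p = 0.0431, edgeR) and lower in BSF_C than in DSF (-0.28 ± 0.09, adjusted p = 0.0271, edgeR). Both calls depended on single libraries. The first was lost without either BSF library, without either DSF library and without LSF replicate 2 or 3, at adjusted p-values of 0.0538 to 0.3 (edgeR). It was also lost with DESeq2 (0.0736), with library totals (0.0548), with GC and length trends removed (0.152) and after thinning to equal depth (0.209). The second was lost without either DSF library or without BSF_C replicate 2, at 0.0583 to 0.304 (edgeR). Over all alternatives the adjusted p (edgeR, limma or DESeq2) ran from 0.0133 to 0.3 for the first and from 0.00751 to 0.304 for the second. The 263 exon bases that Nr1d1 shares with Thra, the thyroid hormone receptor alpha gene on the other strand, make up 8.5% of its exon length. Thra averaged 132 CPM in BSF, 132 in BSF_C, 172 in LSF, 157 in DSF and 224 in con. With 5.7% of Thra counts, the share of its exon length that overlaps, taken off, an alternative chosen after seeing the data, Nr1d1 was at -1.18 in BSF against LSF and at 0.89 in LSF against DSF, and the BSF against DSF call was lost (-0.30, adjusted p = 0.0532, edgeR).

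Against con, Nr1d1 fell in BSF (-0.86 ± 0.09, adjusted p = 3.02e-12, edgeR), in BSF_C (-0.86 ± 0.08) and in DSF (-0.57 ± 0.09), where it averaged 46.2, 46.4 and 56.4 CPM against 84.1 ± 6.99 CPM in con (SD, n = 3). In LSF it was called slightly higher than in con (0.22 ± 0.07, adjusted p = 0.00851, edgeR). The LSF call did not hold when con replicate 1 (0.15, adjusted p = 0.091, edgeR) or LSF replicate 1 (0.18, 0.0556) was left out, and its adjusted p ran from 0.000189 to 0.091 over all alternatives. Relative to the median of all genes it was 0.12. The order of the group means was LSF, con, DSF, BSF_C and BSF, and of the neighbours in it BSF_C and BSF alone, at 46.4 and 46.2 CPM, were not called different.

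Nr1d2, which encodes REV-ERB beta (ENSMUSG00000021775.11, chromosome 14, 18204054 to 18239127 on the minus strand), was also highest in LSF, on 50 to 266 counts per library. The order of its means was LSF, DSF, con, BSF_C and BSF, and of neighbours in it LSF and DSF alone were called different. It had 9.69 and 11.8 CPM in the BSF libraries and 9.46, 14 and 12.4 in those of BSF_C. The LSF libraries had 28.4, 34.2 and 31.8, the DSF libraries 16.4 and 16 and the con libraries 14.7, 15 and 11.5. Every LSF library stood above all others, and the con range overlapped those of BSF and BSF_C. It averaged 10.8 ± 1.5 CPM in BSF and 31.4 ± 2.92 CPM in LSF (SD, n = 2 and 3), a difference of -1.54 ± 0.15 (adjusted p = 3.97e-12, edgeR). BSF_C stood at -1.39 ± 0.13 against LSF, and LSF was 1.94-fold above DSF (0.96 ± 0.14, adjusted p = 4.22e-07, edgeR). Against con it rose in LSF alone among the called differences, 2.28-fold (1.19 ± 0.14, adjusted p = 9.9e-11, edgeR). In DSF it was at 0.23 ± 0.17, in BSF at -0.35 ± 0.18 (adjusted p = 0.0799, edgeR) and in BSF_C at -0.20 ± 0.16 against con, none called, although DSF passed with library totals (0.39, adjusted p = 0.0445, within 0.0445 to 0.885 over all alternatives).

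BSF was called lower than DSF for Nr1d2 (-0.58 ± 0.18, adjusted p = 0.0227, edgeR), and this was lost without BSF replicate 1 (0.222) or either DSF library (0.133 and 0.0891), within 0.0041 to 0.222 over all alternatives. BSF_C against DSF was not called (-0.43 ± 0.16, adjusted p = 0.0632, edgeR). It was called in 6 of 22 alternatives, among them those without BSF_C replicate 2 (-0.57, adjusted p = 0.0282) and without con replicate 3 (-0.43, 0.0411), and the adjusted p ran from 0.0239 to 0.31. BSF against con was called without con replicate 3 (-0.45, adjusted p = 0.0307) and, at 0.00103, with GC and length trends removed, within 0.00103 to 0.4. With those trends removed BSF_C also fell below con (-0.45, adjusted p = 0.00838), within 0.00838 to 0.853. Marker sums of other cell types also differed between these groups. Leukocyte and heart muscle sums, given above, were lower in BSF and BSF_C than in LSF. The smooth muscle sum (5 genes) was 21.4 to 29 CPM in BSF, 23.1 to 33.5 in BSF_C, 66.3 to 68.1 in LSF, 54.8 to 61.9 in DSF and 25.1 to 25.6 in con. Within it, Des averaged 14.8 CPM in BSF, 14.6 in BSF_C, 47.2 in LSF, 45.5 in DSF and 0.0768 in con. Tagln averaged 9.69, 10.7, 17.9, 11.4 and 24 CPM in the same groups. Acta2 (0.146 to 2.1 CPM) was highest in LSF, while Myh11 (0.166 to 0.891 CPM) and Cnn1 (0.0402 to 0.23 CPM) were highest in con. The brain sum (10 genes) was higher in BSF and BSF_C than in LSF. It was 232 to 241 CPM in BSF, 233 to 245 in BSF_C, 159 to 166 in LSF, 151 to 163 in DSF and 229 to 256 in con. Between LSF and DSF the leukocyte, heart muscle and brain sums overlapped, while smooth muscle and epithelium (10200 to 10300 CPM in LSF and 9570 to 9860 CPM in DSF) did not. The epithelial genes were split. Alpi averaged 2990 CPM in LSF and 1820 CPM in DSF, and Vil1, Krt20 and Fabp2 were also higher in LSF. Epcam, Cdh1, Krt8, Krt18, Krt19 and Cldn7 were lower in LSF, among them Krt19 at 1730 against 2120 CPM. The part of these cell types in the REV-ERB differences was not tested.

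**Figure D1:**
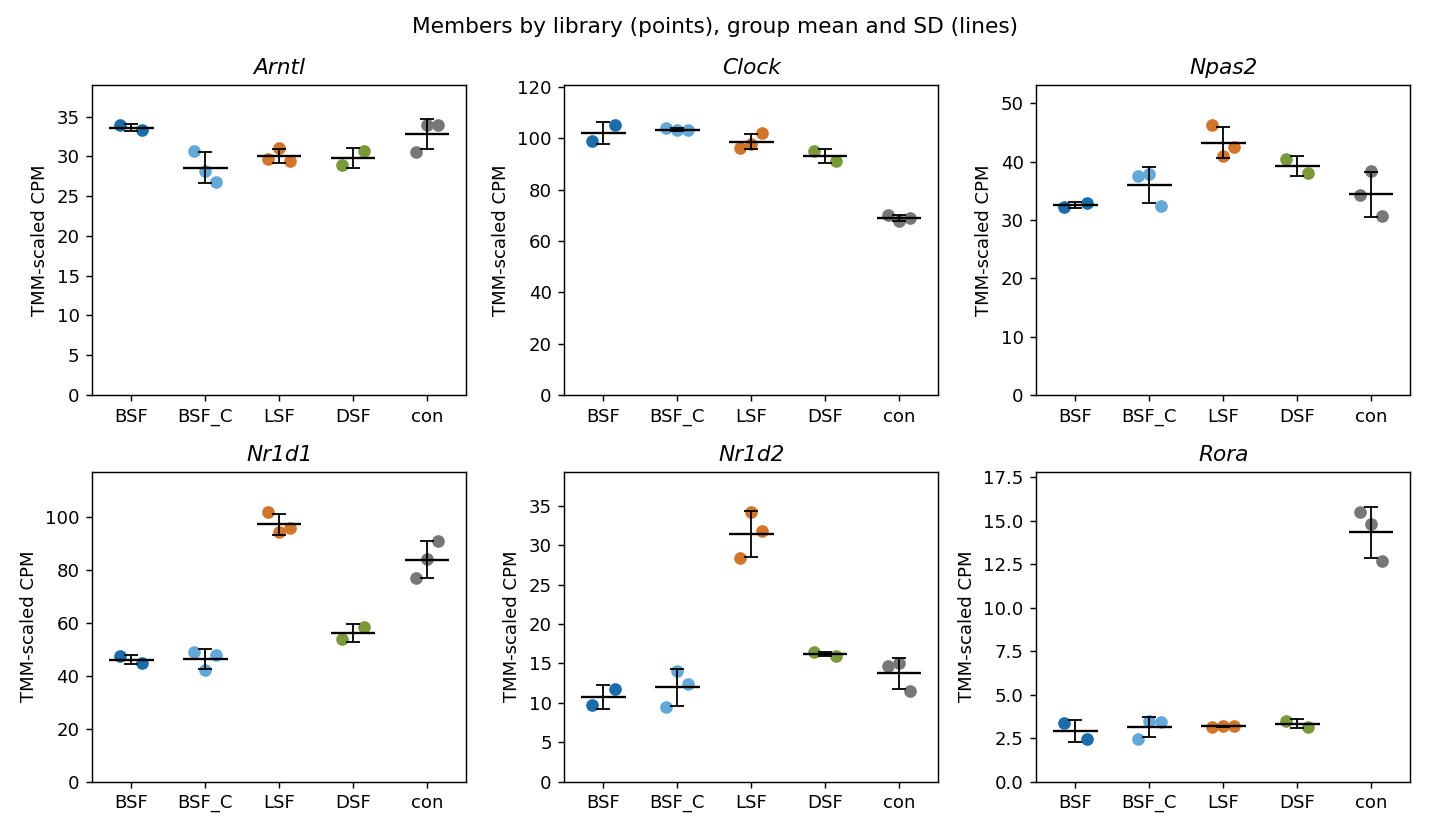
TMM-scaled CPM (vertical axis, from 0) of each gene in every library (points), by group, with the group mean and SD as black lines. Nr1d1 and Nr1d2 were highest in LSF, Clock was lowest in con and Rora was highest in con, while the Arntl groups lay between 26.8 and 33.9 CPM.

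Arntl (ENSMUSG00000055116.8, chromosome 7, 113207465 to 113314126 on the plus strand), whose protein BMAL1 is the partner of CLOCK and NPAS2, was not called in any of the 10 comparisons between groups. It had 33.9 and 33.3 CPM in the BSF libraries and 30.7, 28.2 and 26.8 in those of BSF_C. The LSF libraries had 29.7, 31.1 and 29.4, the DSF libraries 28.9 and 30.7 and the con libraries 30.6, 33.9 and 33.9. The whole range was narrow, and con overlapped every other group. The joint test over the 5 groups gave an adjusted p of 0.177 and that over the 4 groups other than con 0.286 (edgeR). Both BSF libraries lay above all BSF_C libraries (-0.23 ± 0.10 for BSF_C over BSF, unadjusted p = 0.0286, adjusted p = 1, edgeR). BSF_C stood at -0.20 ± 0.10 against con (adjusted p = 0.0815, edgeR). That difference was called without con replicate 1 (-0.25, adjusted p = 0.0493) or BSF_C replicate 1 (-0.26, adjusted p = 0.0392), and its adjusted p ran from 0.0392 to 0.796 over all alternatives. For LSF and DSF against con, and for LSF against DSF, the sign of the difference changed with the scaling or with the removal of GC and length trends.

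Clock (ENSMUSG00000029238.11, chromosome 5, 76209868 to 76304792 on the minus strand), the partner of BMAL1, separated con from the rest. It had 99.1 and 105 CPM in the BSF libraries and 104, 103 and 103 in those of BSF_C. The LSF libraries had 96.2, 97.9 and 102, the DSF libraries 95 and 91.3 and the con libraries 70, 67.6 and 68.9. All con libraries lay below all others. Against con it rose in BSF (0.57 ± 0.08, adjusted p = 2.38e-09, edgeR), BSF_C (0.59 ± 0.07), LSF (0.52 ± 0.07) and DSF (0.44 ± 0.08), between 1.35-fold and 1.5-fold. Among the 4 other groups no pair was called, and their joint test gave an adjusted p of 0.27 (edgeR). The joined exons of Clock are long (13.727 kb), and its longest annotated transcript has a GC content of 40.9%. With trends of GC content and length removed, the rise over con was 0.15 in BSF and no longer called (adjusted p = 0.062). The same step left 0.24 in BSF_C, 0.21 in LSF and 0.18 in DSF, all called (adjusted p = 0.00143, 0.00629 and 0.0385, edgeR). These were the highest adjusted p-values of any alternative, and the lowest was 2.74e-14 (BSF_C) to 3.18e-09 (DSF).

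Npas2 (ENSMUSG00000026077.15, chromosome 1, 39193731 to 39363236 on the plus strand), which can take the place of CLOCK, was highest in LSF, with smaller differences than the REV-ERB genes. It had 32.2 and 32.9 CPM in the BSF libraries and 37.6, 37.9 and 32.4 in those of BSF_C. Those of LSF had 46.2, 41 and 42.5, the DSF libraries 40.5 and 38 and the con libraries 34.3, 38.3 and 30.6. The LSF libraries again lay above every other library, and both BSF libraries lay within the con range. The joint test among the 4 groups other than con gave an adjusted p of 0.00529 (edgeR). BSF was lower than LSF (-0.41 ± 0.10, adjusted p = 0.00156, edgeR), and BSF_C was lower than LSF (-0.27 ± 0.09, adjusted p = 0.0181, edgeR). The second call was lost without BSF_C replicate 3 (-0.20, adjusted p = 0.137), without LSF replicate 1 (-0.21, adjusted p = 0.117) and with scaling to library totals (-0.20, adjusted p = 0.0818), within 0.00595 to 0.137 over all alternatives. LSF was higher than con (0.33 ± 0.10, adjusted p = 0.00294, edgeR). In DSF against con it stood at 0.19 ± 0.11, not called, and was called without con replicate 2 (0.27, adjusted p = 0.046), within 0.00274 to 0.427. Library totals and the removal of GC and length trends also made this call (0.34 and 0.37, adjusted p = 0.00659 and 0.00274). BSF stood at -0.08 ± 0.11 and BSF_C at 0.06 ± 0.10 against con. The same alternatives called BSF_C higher than con (0.23 and 0.26, adjusted p = 0.0423 and 0.017, within 0.017 to 0.923). The order of its means was LSF, DSF, BSF_C, con and BSF, and no neighbours in it were called different.

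Rora (ENSMUSG00000032238.17, chromosome 9, 68653786 to 69388246 on the plus strand), which encodes the activator ROR alpha, was lower in every other group than in con, at 0.201 to 0.234 times its level there. It had 3.36 and 2.45 CPM in the BSF libraries and 2.46, 3.51 and 3.43 in those of BSF_C. Libraries of LSF had 3.14, 3.21 and 3.19, the DSF libraries 3.51 and 3.17 and the con libraries 15.5, 14.8 and 12.7. Counts were 20 to 30 in each library outside con and 55 to 75 in con. All con libraries stood above all others, although they were the shallowest. Against con it fell by 2.31 ± 0.25 on the log2 scale in BSF (adjusted p = 4.61e-12, edgeR). The value was -2.19 ± 0.21 in BSF_C, -2.17 ± 0.21 in LSF and -2.10 ± 0.24 in DSF, with adjusted p-values of 2.16e-13, 3.5e-13 and 6.41e-11 (edgeR). Among BSF, BSF_C, LSF and DSF the joint test gave an adjusted p of 0.949 (edgeR), with every library between 2.45 and 3.51 CPM. At 20 to 30 counts the differences among those groups had SEs of 0.26 to 0.32, and a difference has to be well above its SE to be called. The skin keratinocyte sum was also higher in con, at 551 to 652 CPM against 4.91 to 9.83 CPM outside it. Within con, the library with the highest Rora (15.5 CPM) had the lowest skin sum (551 CPM). The part of skin RNA in the Rora difference was not tested. A list of 7 markers of type 2 and type 3 innate lymphoid cells, which use ROR proteins, summed to 6.8 to 11.8 CPM outside con and 0.416 to 2.3 CPM in con, where 5 had no count. Most of that sum was Thy1, at 5.56 to 6.81 CPM in the other groups and 0 in con. Gata3 averaged 0.346 CPM in BSF, 0.689 in BSF_C, 1.2 in LSF, 0.789 in DSF and 1.1 in con.

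**Figure D2:**
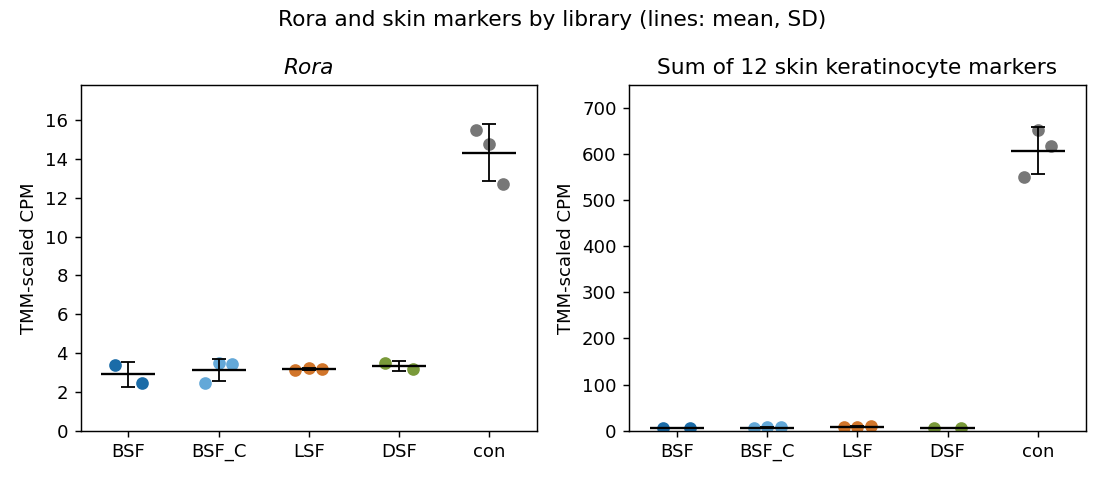
TMM-scaled CPM of Rora and of the sum of 12 skin keratinocyte markers in every library (points; black lines are the group mean and SD; vertical axes from 0). Both were high in con, at 12.7 to 15.5 CPM for Rora and 551 to 652 CPM for the skin sum.

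Between BSF_C and BSF, 0 of the 6 genes were called (0.133% of all genes were, edgeR). Higher calls were 0.105% and lower calls 0.0280% of all genes. DESeq2 and limma called 0 as well, and 1 of the 6, Arntl, had an unadjusted p under 0.05 in edgeR. Nr1d1 differed by 0.01 ± 0.09, Clock by 0.02 ± 0.07, Npas2 by 0.15 ± 0.10, Nr1d2 by 0.15 ± 0.17 and Rora by 0.13 ± 0.29. For Nr1d1, Clock and Rora the sign of that difference changed in at least 1 alternative. The values do not show that the groups were alike.

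Counted by comparison, 3 of 6 genes were called in BSF against LSF, all lower, where 29.3% of all genes were called, 13.4% higher and 15.9% lower. The median log2 fold change of the 6 was -0.28, beside 0.01 over all genes. In BSF_C against LSF 3 were called, all lower (32.7% of all genes called, 15.6% higher and 17.1% lower), with a median of -0.17 beside 0.01 over all genes. In LSF against DSF 2 were called, both higher (15.9% called, 8.97% higher and 6.91% lower), and in BSF against DSF 2 were called, both lower (12% called, 5.77% higher and 6.26% lower). In BSF_C against DSF 1 was called, lower (11.9% called, 5.87% higher and 5.99% lower). The split of calls over all genes turned on the scaling: the higher share of calls was 45.8% in BSF against LSF, 47.6% in BSF_C against LSF and 56.5% in LSF against DSF with trimmed means, and 62.9%, 63.3% and 38% with library totals. In LSF against con 5 were called, 4 higher and 1 lower, beside 72.0% of all genes called, 38.9% higher and 33.0% lower. BSF, BSF_C and DSF against con each had 3 called, 1 higher and 2 lower, beside 70.2%, 73.0% and 67.7% of all genes called. Of all genes 38.3%, 39.8% and 36.6% were higher and 31.9%, 33.2% and 31.1% lower, so in these comparisons the share of the 6 that was called was no larger than the background. Over the 5 groups together 5 of 6 were called, beside 79.1% of all genes.

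**Figure D3:**
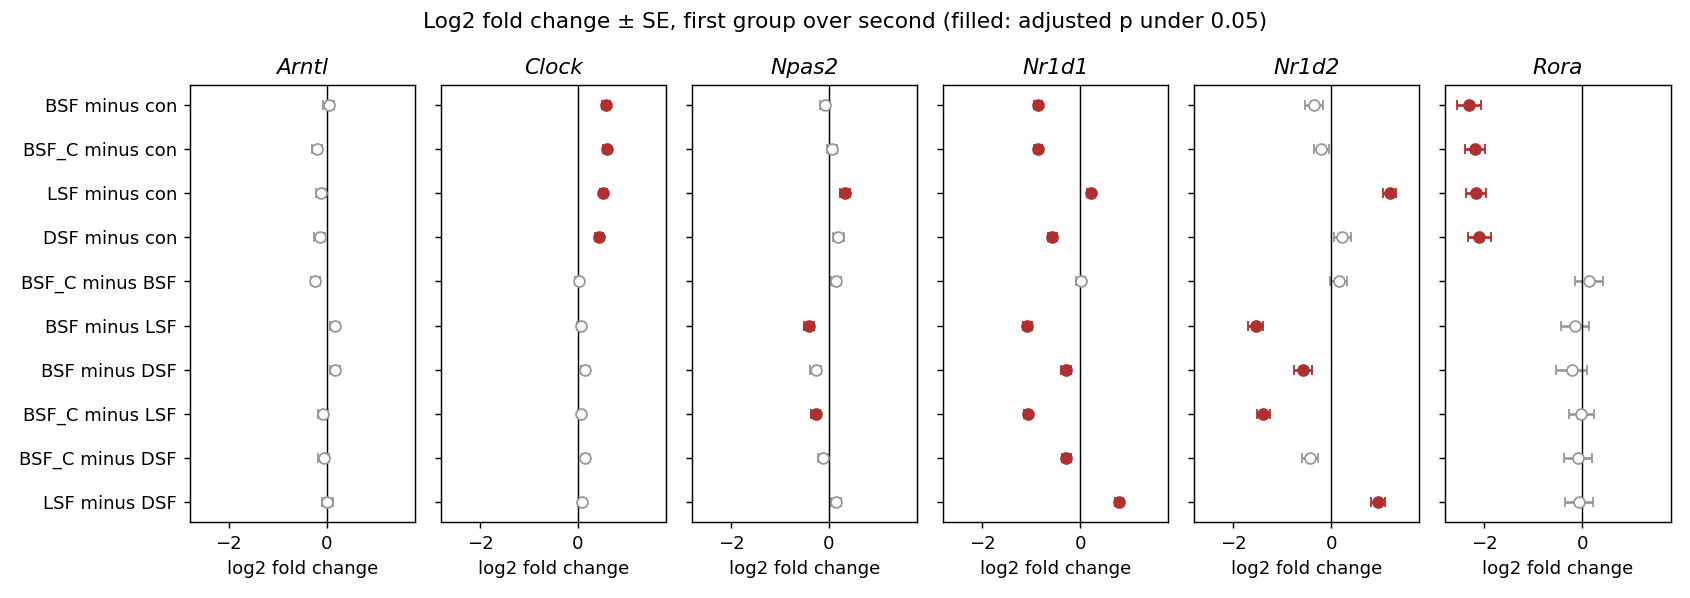
Log2 fold change of the first group over the second with its SE (horizontal axis) for each gene and each of the 10 comparisons (rows). Filled points passed an adjusted p of 0.05, and the called differences among the 4 groups other than con are those of Npas2, Nr1d1 and Nr1d2.

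Per kilobase of exon, Nr1d1 had the highest level of the 6 genes in every group, at 15 CPM per kb in BSF, 15.1 in BSF_C, 31.7 in LSF, 18.3 in DSF and 27.3 in con. Rora had the lowest, at 0.222, 0.24, 0.243, 0.255 and 1.09 CPM per kb in the same groups. In BSF Clock had 7.45 ± 0.327 and Npas2 6.79 ± 0.104 CPM per kb (SD, n = 2), in LSF Clock had 7.18 ± 0.198 and Npas2 9.03 ± 0.563 (n = 3), and in con Clock had 5.01 ± 0.0881 and Npas2 7.18 ± 0.796 (n = 3). Arntl, their partner, ranged from 3.8 in BSF_C to 4.47 CPM per kb in BSF. Nr1d2 exceeded Arntl in LSF, at 5.81 against 3.99 CPM per kb, and was below it in the other groups. These lengths are all annotated exons of a gene joined (from 3.077 kb for Nr1d1 to 13.727 kb for Clock), and a transcript that uses only part of them would have a higher level than given.

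**Figure D4:**
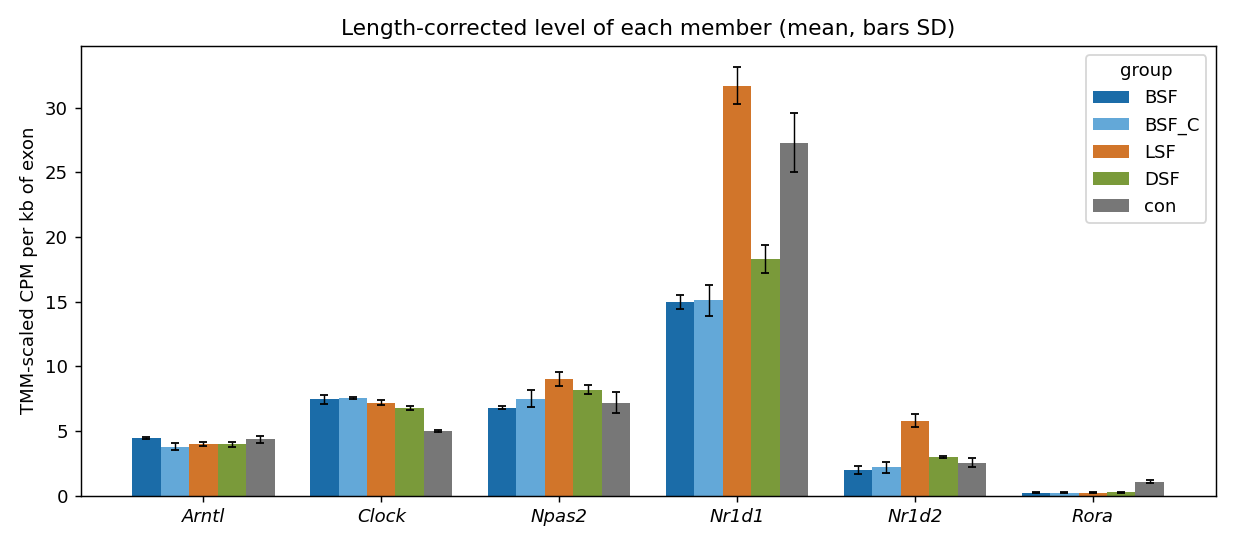
Mean TMM-scaled CPM per kb of annotated exon (vertical axis, from 0) of the 6 genes, with SD as error bars, for BSF, BSF_C, LSF, DSF and con. Nr1d1 was the highest and Rora the lowest in each group.

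The ratio of Nr1d1 to Arntl counts within a library is independent of the scaling between libraries. With 0.5 added to each count, its log2 was 0.48 and 0.43 in the BSF libraries and 0.68, 0.58 and 0.83 in those of BSF_C. In LSF it was 1.79, 1.60 and 1.70, in DSF 0.90 and 0.93 and in con 1.33, 1.31 and 1.42. The group means were 0.46 ± 0.03, 0.70 ± 0.13, 1.70 ± 0.09, 0.92 ± 0.02 and 1.35 ± 0.06 (SD), and no 2 groups overlapped. As a score over chosen genes it was given no test.

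**Figure D5:**
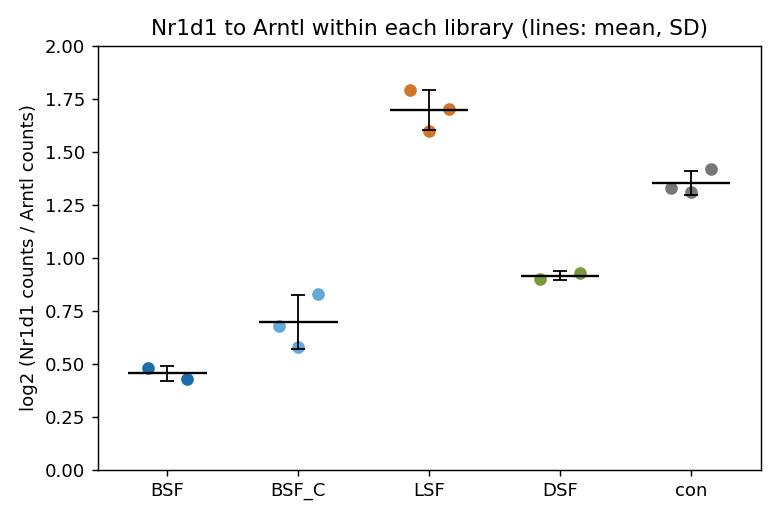
Log2 ratio of Nr1d1 to Arntl counts (vertical axis) in each library (points) by group, with the mean and SD as black lines. LSF was highest, at 1.60 to 1.79, and BSF lowest, at 0.43 and 0.48.

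Other genes of the pathway were taken from lists chosen with earlier results of these data known. Of 8 genes of the negative limb (Per1, Per2, Per3, Cry1, Cry2, Ciart, Bhlhe40 and Bhlhe41), 3 were higher and 2 lower in BSF than in LSF, beside 13.4% and 15.9% of all genes, and 4 were higher and 1 lower in BSF than in DSF, beside 5.77% and 6.26%. Per1, a light- and hormone-responsive repressor, had the direction of the REV-ERB genes. It averaged 13.5 CPM in BSF, 14.2 in BSF_C, 30 in LSF, 18.8 in DSF and 22.1 in con, and was lower in BSF than in LSF (-1.15 ± 0.13, adjusted p = 2.86e-10, edgeR). Per2 had the other direction in BSF against LSF (0.40 ± 0.08, adjusted p = 0.000209, edgeR), at 68.5, 64, 52, 36.1 and 37.3 CPM in the same groups. Bhlhe40, a repressor that competes for E-boxes, was higher in BSF than in LSF (0.56 ± 0.06, adjusted p = 9.95e-11, edgeR). Against con, BSF had 6 of the 8 higher and 2 lower, BSF_C had 5 and 2, LSF had 6 and 2, and DSF had 3 and 2. In the same comparisons 70.2%, 73.0%, 72.0% and 67.7% of all genes were called, so most genes of any kind differed from con.

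Of the 4 D-box factors (Dbp, Tef, Hlf and Nfil3), 2 were lower and none higher in BSF than in LSF, and 2 were higher and none lower in BSF than in DSF, where 29.3% and 12% of all genes were called. Tef, an activator of D-box genes, averaged 68.5 CPM in BSF, 69.4 in BSF_C, 84.9 in LSF, 36.5 in DSF and 35 in con, and Hlf, its relative, 8.91, 7.36, 9.97, 3.8 and 2.64. Both were called lower in DSF than in BSF. Nr1d1 was called higher in DSF than in BSF, although, as given above, that call depended on single libraries. Dbp averaged 11.6 CPM in LSF and 7.67 to 8.44 CPM in the other groups. LSF was called higher than BSF, BSF_C and con, but not higher than DSF (0.52 ± 0.19, adjusted p = 0.052, edgeR). The con libraries reached 10.6 CPM, and the lowest LSF library had 10.7 CPM.

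Of the corepressor complex that REV-ERB proteins recruit, Tbl1xr1, an exchange factor, was higher in BSF than in LSF (0.24 ± 0.08, adjusted p = 0.0128, edgeR). Ncor1, the corepressor itself, averaged 182 CPM in BSF, 173 in BSF_C, 204 in LSF, 168 in DSF and 123 in con. Tbl1x, a subunit, fell in all 4 groups against con, with means of 82.6 CPM for BSF, 80.4 for BSF_C, 74.8 for LSF and 83.7 for DSF, against a con mean of 145 CPM. Among genes for turnover of clock proteins, Usp2, a deubiquitinase, also fell in all 4 groups against con. Its means were 52.1 CPM for BSF, 47.8 for BSF_C, 47.5 for LSF and 55.8 for DSF, against 67 CPM for con. Lower calls against con made up 31.9% (BSF), 33.2% (BSF_C), 33.0% (LSF) and 31.1% (DSF) of all genes. Neither Tbl1x nor Usp2 was called in any pair among the groups other than con. Gsk3b, a kinase that phosphorylates clock proteins, was higher in BSF than in DSF (0.25 ± 0.08, adjusted p = 0.0351, edgeR), at 120 CPM in BSF and 100 CPM in DSF. Of 9 genes for making and breaking down heme, the ligand of the REV-ERB proteins, 1 was lower in BSF than in LSF, beside 15.9% of all genes, and 3 were lower in BSF than in DSF, beside 6.26%. Alas1, the rate-limiting step of heme synthesis, was highest in DSF (34.7 CPM in BSF, 34.5 in BSF_C, 39.4 in LSF, 52.2 in DSF and 27.2 in con). Fech, which inserts the iron, was the 1 lower in BSF than in LSF (-0.37 ± 0.09, adjusted p = 0.00188, edgeR).

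The genes closest in profile were sought for the 3 genes called among the groups other than con. Likeness was the root mean square difference of log2 CPM over the 13 libraries, each gene centred on its own mean, over 10878 genes with a mean of at least 5 CPM. Nearest to Nr1d1 were Rnase4, a secreted ribonuclease (0.08), Slc7a8, an amino acid exchanger (0.13), and Per1 (0.14), where the median gene stood at 0.54. Rnase4 averaged 75.2 CPM in BSF, 77.7 in BSF_C, 163 in LSF, 91.5 in DSF and 137 in con. Nearest to Nr1d2 were Retreg1, a receptor for autophagy of the endoplasmic reticulum (0.21), Bach2, a transcriptional repressor (0.22), and Ptgr1, a prostaglandin reductase (0.23), beside a median of 0.67. Ptgr1 averaged 22.2 CPM in LSF and 7.78 to 8.84 CPM in the other groups. Nearest to Npas2 were mt-Nd1 (0.09), Rnf115 (0.09) and Ube2j2 (0.10), with a median of 0.34. mt-Nd1 encodes a subunit of mitochondrial complex I, and Rnf115 and Ube2j2 are ubiquitin-pathway enzymes.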

How the data were processed

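RNA of sorted mouse jejunal epithelial cells was measured in 13 libraries. The authors deposited 1 table of raw counts per gene symbol, whole numbers with no scaling. The submitters' processing notes list FastQC 0.11.8, cutadapt 2.9, STAR 2.7.2e, DESeq2 1.32.0 and the builds GRCm38 and mm10, with no settings. The annotation and the strand setting are not given in the sources used here. In the deposited counts, 21 of 23 genes lying at least 95% inside exons of an opposite-strand gene with at least 1000 counts had at least 10 counts, so reads over Nr1d1 and Thra cannot be assigned with certainty. Coordinates and exon lengths are from GENCODE M21 (GRCm38), which held 99.5% of the symbols, and start regions from RefSeq (GRCm38.p6).

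Genes kept by filterByExpr numbered 14300 and held 99.91% of counts. With edgeR 4.0.16 (R 4.3.3), TMM scaling and a quasi-likelihood fit took in the 13 libraries, with group as sole covariate and 8 residual degrees of freedom. All 10 pairs of groups were tested two-sided, and joint tests covered 5 groups and the 4 other than con. SE is the size of the log2 fold change over the root of F. The common biological coefficient of variation was 4.87%. Library pairs within groups differed by more than counting error (chi-square per degree of freedom 1.37 to 3.93). Column marks and titles number the DSF libraries differently, so these carry no number. The genes, lists and rules were chosen with earlier results of these data known. Named beside the 6 were up to 3 genes per list with the smallest p of the joint test among the 4 groups, genes overlapping a member and the 3 nearest profiles. Alternatives were DESeq2 1.42.0 and its size factors, library totals, limma-voom (limma 3.58.1), no filter, only the groups compared, con left out, a replicate block, thinning to 4851239 counts, GC and length trends removed (lowess, span 0.3), each library left out and, added after seeing the data, the Thra share. The procedure was tested on simulated data in which a small set of genes was changed, in LSF and DSF alone. The wide differences from con were not simulated. Results for some listed genes, and the counts of the lists that hold them, are not reported here.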

Additional observations from a re-analysis of the deposited data

How the results depend on the processing

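The calls of Nr1d1 and Nr1d2 in BSF and BSF_C against LSF and in LSF against DSF, of Nr1d1 in BSF, BSF_C and DSF against con, of Nr1d2 and Npas2 in LSF against con, of Npas2 in BSF against LSF, of Clock in BSF_C, LSF and DSF against con and of Rora in all 4 groups against con held under every alternative run. Members called in BSF against DSF numbered 2, and 1 with DESeq2, library totals, GC and length trends removed, the Thra share or thinning (0 to 2 with a library left out). In BSF_C against DSF they numbered 1, and 2 with con left out, no filter, only the groups compared or GC and length trends removed (0 to 2 with a library left out). They rose to 5 in BSF_C against con with GC and length trends removed and to 5 in DSF against con with library totals. The cause was not tested. Signs turned for uncalled differences. With GC and length trends removed these were Arntl in DSF (0.05) and LSF (0.04) against con and in LSF against DSF (-0.01), Clock in BSF against DSF (-0.02) and LSF (-0.05), Npas2 in BSF against con (0.13) and Nr1d1 in BSF_C against BSF (-0.03). With library totals they were Arntl in DSF against con (0.02) and LSF against DSF (-0.05), Npas2 in BSF against con (0.09), Nr1d1 in BSF_C against BSF (0) and Rora in BSF_C against LSF (0.05). Nr1d1 in BSF_C against BSF was 0 with no filter and -0.07 after thinning, and Rora after thinning was 0.04 in BSF_C against DSF and 0.05 against LSF. With each library left out, Arntl ran from -0.01 to 0.06 in BSF against con and from -0.03 to 0.05 in LSF against DSF, and Npas2 from -0.01 to 0.14 in BSF_C against con. In BSF_C against BSF, Clock ran from -0.03 to 0.06, Nr1d1 from -0.04 to 0.07 and Rora from -0.1 to 0.35. Rora ran from -0.44 to 0.01 in BSF against DSF, -0.37 to 0.08 in BSF against LSF, -0.18 to 0.05 in BSF_C against DSF, -0.11 to 0.12 in BSF_C against LSF and -0.15 to 0.01 in LSF against DSF. Over all genes, calls in BSF_C against BSF numbered 19, and 2 with DESeq2, 4 with limma-voom, 29 with con left out, 30 with no filter, 32 with only the groups compared and 12 without BSF_C replicate 2. In BSF against DSF they numbered 1720, and 1109 with DESeq2, 1130 after thinning, 920 and 876 without BSF replicate 1 or 2, and 798 and 919 without the DSF library marked S2 or S3. Without S2 or S3 they were 927 and 848 (from 1696) in BSF_C against DSF and 1288 and 1430 (from 2271) in LSF against DSF, and without BSF replicate 1 or 2 they were 2557 and 2583 (from 4190) in BSF against LSF. Replicate numbers did not pair the samples (15 same-number pairs, correlations of -0.0674 to 0.0297). The replicate block, possible for con, BSF, BSF_C and LSF, changed no call of the 6 genes and put Nr1d1 in BSF_C against BSF at -0.02. Depth limits Rora most, at 20 to 30 counts outside con.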
